A study of Mus musculus with 6 samples.

Results

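The genes described here are 38 genes of sterol and fatty acid synthesis and transport, chosen by symbol among the 24421 genes of the deposited table. They cover the mevalonate steps, the later sterol steps, the control of SREBP transcription factors, the uptake, efflux, transport and storage of cholesterol, and fatty acid synthesis. All 38 were in the table and all passed the filter on low values, which asked for 0.5 RPKM or more on average across the 6 libraries. RPKM is the number of reads of a gene scaled to its length and to the size of the library.

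Messenger RNA was measured in wild-type mouse T cells: naive CD4 cells from spleen were polarized to Th17, helper cells known for secreting interleukin 17. The treated group was cultured with 10 nM pemafibrate, a drug of the fibrate class that activates PPARalpha, in medium with 10% serum until day 2, and then for 2 days more in IMDM with 10% serum. The control group received vehicle. Each group has 3 samples, pemafibrate 3, 7 and 8 and vehicle 3, 4 and 7, numbered as in their titles. Strain and age are not in the labels, and neither is the source of each sample (its own animal or its own culture), so a p-value here speaks of the spread among 6 samples that could be technical repeats. These are bulk samples, in which fewer cells of a type and less RNA per cell cannot be told apart.

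The libraries held 14935351 to 18322467 reads, the smallest being pemafibrate 7. Summed over 6 T cell markers (Cd3d, Cd3e, Cd3g, Cd4, Lat and Cd5) the level was 1200 to 1252 RPKM in pemafibrate and 1218 to 1256 RPKM in vehicle libraries. The 4 B cell markers summed to 4.70 to 5.20 RPKM in pemafibrate and 4.65 to 5.10 RPKM in vehicle libraries, and the 2 CD8 markers to 5.52 to 6.98 RPKM in pemafibrate and 4.86 to 6.52 RPKM in vehicle libraries. The 5 macrophage, monocyte and dendritic cell markers summed to 7.80 to 13.6 RPKM in pemafibrate and 8.63 to 11.9 RPKM in vehicle libraries. The 2 NK cell markers were at 0 in pemafibrate and summed to at most 0.0615 RPKM in vehicle libraries. The 3 red cell markers were at 0 in all 6 libraries. The 3 Th17 markers Il17a, Il17f and Ccr6 summed to 1285 to 1580 RPKM in pemafibrate and 1729 to 1929 RPKM in vehicle libraries, without overlap. Il17a and Il17f, the Th17 cytokine genes, were each lower in all pemafibrate than in all vehicle libraries, and Ccr6, a chemokine receptor gene, was higher. The part of this difference in the values below was not tested.

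Cells build cholesterol from acetyl-CoA through mevalonate, isoprenoid units, squalene and a series of sterols. When membrane sterol is low, the escort protein SCAP carries SREBP precursors from the endoplasmic reticulum to the Golgi, where they are cut and released to switch on the synthesis genes, while the INSIG proteins hold the complex back when sterol is plentiful. Oxysterols and late sterol intermediates activate the LXR receptors, which raise the efflux transporters ABCA1 and ABCG1, the ubiquitin ligase MYLIP, SREBF1 and stearoyl-CoA desaturase. Activated T cells need this supply to build membrane as they divide.

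No gene of the 38 passed the comparison of pemafibrate with vehicle. With limma on log2(RPKM + 0.5) and Benjamini-Hochberg adjustment over all genes tested, 0 of 38 had an adjusted p under 0.05, where 40 of 11360 genes (0.352%) did. At an unadjusted p under 0.05 there were 2 of the 38 against a background of 9.67%, and in 2 of the 38 the groups did not overlap, against 15% of all genes tested. In 1 of them pemafibrate lay above (background 7.67%) and in 1 below (background 7.31%). With voom on the whole reads recovered from the RPKM values, 0 of 38 passed (background 1.23%) and 3 had an unadjusted p under 0.05 (background 9.6%). Among the authors' own tests, as the authors' deposited table gives them, 0 of 38 had an adjusted p under 0.05 (background 1.19%), and 7 had an unadjusted p under 0.05 (background 5.89%). Those backgrounds cover all 24421 genes, many of them listed at 0. Over the 11360 genes tested here they are 2.46% and 11.1%. The lowest adjusted p there was 0.270, for Hmgcs1.

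The differences were small where they could be measured closely. For 34 of the 38 genes the 95% interval of the difference, not adjusted for the number of genes, lay within 1.5-fold in either direction on the log2(RPKM + 0.5) scale. Over all genes tested, 10506 of 11360 intervals did so, so narrow intervals are not particular to these genes. The 4 genes with wider intervals were Abca1, Abcg1, Scd1 and Fads2. Of the 38, 29 had a log2 difference above 0, against 52.6% of all genes tested, and their median log2 difference was 0.06, against 0.01 over all genes tested. Leaving out vehicle 7 alone brought the median of the 38 to 0.03.

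**Figure D1:**
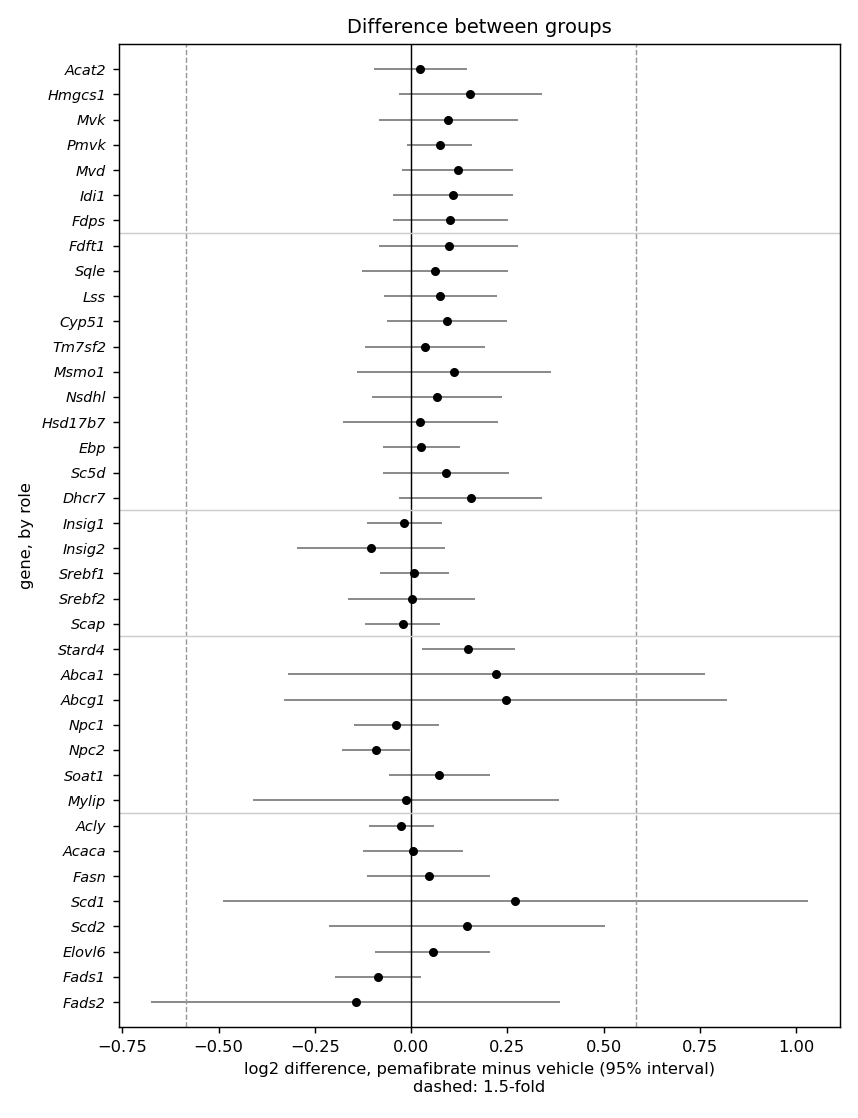
Log2 difference on the log2(RPKM + 0.5) scale, pemafibrate minus vehicle, for the 38 genes grouped by role, with limma's 95% interval (3 samples per group) and dashed lines at 1.5-fold. The intervals of 34 genes stay between the dashed lines, and those of Abca1, Abcg1, Scd1 and Fads2 cross one of them. Over all genes tested, 10506 of 11360 intervals lay within 1.5-fold.

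The mevalonate steps turn acetyl-CoA into isoprenoid units. All 7 genes had a log2 difference above 0 (median 0.10, range 0.02 to 0.15), and 0 of 7 passed. Hmgcs1, which makes HMG-CoA (chromosome 13, 119690351 to 119708260, GRCm38), had 64.7, 74.4 and 71.4 RPKM in pemafibrate 3, 7 and 8, against 67.5, 65.9 and 56.0 RPKM in vehicle 3, 4 and 7. The groups overlapped, since pemafibrate 3 lay below vehicle 3 and 4. The log2 difference was 0.15 ± 0.08 (SE), with a limma adjusted p of 0.632.

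Idi1, the isopentenyl diphosphate isomerase and the most abundant of these 7 messengers, had 77.9, 89.8 and 85.6 RPKM in pemafibrate 3, 7 and 8, against 84.1, 77.5 and 73.0 RPKM in vehicle 3, 4 and 7 (log2 difference 0.11 ± 0.07, limma adjusted p = 0.710). Mvd, which decarboxylates mevalonate diphosphate, had 31.3, 35.1 and 36.6 RPKM in pemafibrate 3, 7 and 8 and 32.3, 31.9 and 30.1 RPKM in vehicle 3, 4 and 7 (0.12 ± 0.06, limma adjusted p = 0.630). In both genes pemafibrate 3 was the lowest of its group and vehicle 7 the lowest of its own. Pmvk, the phosphomevalonate kinase, was one of the 2 genes without overlap: 23.2, 23.0 and 23.4 RPKM in pemafibrate 3, 7 and 8 stood against 21.7, 22.1 and 22.2 RPKM in vehicle 3, 4 and 7. That gap was narrow, a log2 difference of 0.07 ± 0.04 (limma adjusted p = 0.593).

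The sterol steps run from the joining of farnesyl diphosphate by Fdft1 to the last reduction by Dhcr7. All 11 genes had a log2 difference above 0 (median 0.08, range 0.02 to 0.16), 0 of 11 passed, and in each of them the groups overlapped. Dhcr7, which reduces 7-dehydrocholesterol to cholesterol (chromosome 7, 143823167 to 143848410), had 11.1, 12.7 and 13.97 RPKM in pemafibrate 3, 7 and 8, against 11.5, 11.2 and 10.9 RPKM in vehicle 3, 4 and 7. Pemafibrate 7 and 8 were above the vehicle libraries and pemafibrate 3 was among them (log2 difference 0.16 ± 0.08, limma adjusted p = 0.629). Cyp51, the lanosterol demethylase and the most abundant of the 11, had 50.8, 58.1 and 54.9 RPKM in pemafibrate 3, 7 and 8, against 54.4, 52.0 and 47.1 RPKM in vehicle 3, 4 and 7 (0.09 ± 0.07, limma adjusted p = 0.757).

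Sc5d, the lathosterol oxidase, had 39.0, 42.2 and 43.7 RPKM in pemafibrate 3, 7 and 8, against 42.7, 38.9 and 35.7 RPKM in vehicle 3, 4 and 7 (0.09 ± 0.07). Fdft1, squalene synthase, had 21.1, 24.3 and 24.6 RPKM in pemafibrate 3, 7 and 8, against 22.9, 22.7 and 19.7 RPKM in vehicle 3, 4 and 7 (0.10 ± 0.08). The pattern is that of Hmgcs1, with pemafibrate 3 and vehicle 7 at the bottom of their groups. Exons of Fdft1 share up to 774 bases with Ctsb on the opposite strand, and the strand setting of the counting is not given, so reads of the 2 genes there cannot be told apart.

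The 18 enzymes of both segments had differences of one sign, but the size changed when single libraries were left out. Their median log2 difference was 0.09, with 18 of 18 above 0. Without vehicle 7 it was 0.04 with 14 of 18 above 0, and without pemafibrate 3 it was 0.13 with 17 of 18 above 0. Without pemafibrate 7, pemafibrate 8, vehicle 3 or vehicle 4 it ran from 0.06 to 0.12, with 17 or 18 above 0. Under median ratio scaling and quantile normalization 18 of 18 stayed above 0, with medians of 0.09 and 0.08. With array weights 15 of 18 were above 0, with the title number as a block 16, and without both vehicle 7 and pemafibrate 3 again 15. The block fit rests on the samples numbered 3 and 7 alone, because vehicle 4 and pemafibrate 8 share no number with the other group.

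Among the regulators, the 2 SREBP genes had nearly the same level in both groups. Srebf2, which encodes the SREBP that drives sterol synthesis (chromosome 15, 82147269 to 82205379), had 91.4, 105.9 and 106.8 RPKM in pemafibrate 3, 7 and 8, against 102.5, 106.7 and 94.2 RPKM in vehicle 3, 4 and 7. The log2 difference was 0.0017 ± 0.071, with a 95% interval from -0.16 to 0.17 (limma adjusted p = 0.997), and its sign turned under median ratio scaling. Srebf1, whose product drives fatty acid synthesis (chromosome 11, 60199084 to 60224186), had 44.0, 45.2 and 45.9 RPKM in pemafibrate 3, 7 and 8 and 43.5, 44.6 and 46.2 RPKM in vehicle 3, 4 and 7 (0.0078 ± 0.039, interval -0.08 to 0.10). Srebf2 RNA exceeded Srebf1 RNA on the RPKM scale 2.08 to 2.34 times in pemafibrate and 2.04 to 2.39 times in vehicle libraries.

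Insig1, itself an SREBP target, had 54.9, 57.6 and 56.5 RPKM in pemafibrate 3, 7 and 8, against 59.3, 57.3 and 54.6 RPKM in vehicle 3, 4 and 7 (-0.02 ± 0.04). Insig2, the second INSIG gene, had 9.24, 9.23 and 7.995 RPKM in pemafibrate 3, 7 and 8, against 10.3, 8.62 and 9.71 RPKM in vehicle 3, 4 and 7 (-0.10 ± 0.08). Scap, the escort, had 33.4, 34.0 and 36.2 RPKM in pemafibrate 3, 7 and 8, against 35.3, 35.0 and 34.9 RPKM in vehicle 3, 4 and 7 (-0.02 ± 0.04). The groups overlapped in all 3 genes, and limma adjusted p ran from 0.786 for Insig2 to 0.942 for Insig1.

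Of the 7 genes of uptake, efflux, transport and storage, 0 passed, and the 2 members with an unadjusted limma p under 0.05 are both here. Stard4 (chromosome 18, 33199138 to 33213862), a soluble carrier that moves cholesterol between membranes, had 47.0, 47.2 and 43.6 RPKM in pemafibrate 3, 7 and 8, against 43.97, 39.5 and 40.7 RPKM in vehicle 3, 4 and 7. Only pemafibrate 8 reached down into the vehicle range. The log2 difference was 0.15 ± 0.05 (limma adjusted p = 0.406). Npc2 (chromosome 12, 84754559 to 84773112), which hands cholesterol from the lysosome lumen to the membrane protein NPC1, had 109.6, 115.5 and 110.7 RPKM in pemafibrate 3, 7 and 8, against 122.4, 116.1 and 119.1 RPKM in vehicle 3, 4 and 7. Its pemafibrate libraries all lay below its vehicle libraries, by a log2 difference of -0.09 ± 0.04 (limma adjusted p = 0.507). Npc1 averaged 14.6 ± 0.225 RPKM in pemafibrate and 15.1 ± 0.653 RPKM in vehicle (SD, n = 3 each), with overlap.

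Soat1, which esterifies cholesterol for storage, had 9.18, 8.97 and 9.96 RPKM in pemafibrate 3, 7 and 8, against 9.06, 8.75 and 8.81 RPKM in vehicle 3, 4 and 7 (0.07 ± 0.06, limma adjusted p = 0.776). Mylip, the ligase that limits lipoprotein uptake, rested on few reads, from 27 per library, with 0.709 ± 0.139 RPKM in pemafibrate and 0.726 ± 0.195 RPKM in vehicle (SD, n = 3 each). The 95% interval of the difference in Mylip ran from 0.753-fold to 1.30-fold, on the scale with 0.5 RPKM added, which narrows it for a gene at this level.

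The efflux transporters varied more within each group than between the groups. Abca1, which loads cholesterol onto apolipoprotein A-I (chromosome 4, 53030789 to 53159988), had 2.08, 1.29 and 1.13 RPKM in pemafibrate 3, 7 and 8, against 0.996, 0.901 and 1.76 RPKM in vehicle 3, 4 and 7. Abcg1, which passes cholesterol to HDL (chromosome 17, 31057694 to 31117984), had 3.05, 1.81 and 1.90 RPKM in pemafibrate 3, 7 and 8, against 1.36, 1.45 and 2.75 RPKM in vehicle 3, 4 and 7. In both genes pemafibrate 3 and vehicle 7 were high and the other 4 libraries low. The log2 differences between groups were 0.22 ± 0.23 for Abca1 and 0.25 ± 0.25 for Abcg1, with limma adjusted p of 0.839 and 0.833. For Abca1 the highest library of a group exceeded its lowest 1.85 times in pemafibrate and 1.96 times in vehicle, a spread reached by 3.7% of all genes tested in pemafibrate and by 3.2% in vehicle.

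In fatty acid synthesis 0 of 8 genes passed, with 5 above and 3 below 0 (median log2 difference 0.02). The genes that make the carbon chain were level: Acly, which supplies acetyl-CoA from citrate, averaged 122 ± 2.21 RPKM in pemafibrate and 124 ± 3.43 RPKM in vehicle, and Fasn, fatty acid synthase, 76.7 ± 6.97 RPKM in pemafibrate and 74.1 ± 3.56 RPKM in vehicle (SD, n = 3 each). Acaca, acetyl-CoA carboxylase, averaged 12.5 ± 0.809 RPKM in pemafibrate and 12.4 ± 0.189 RPKM in vehicle. Elovl6, which extends palmitate, had 10.5, 11.5 and 10.9 RPKM in pemafibrate 3, 7 and 8, against 11.1, 10.7 and 9.72 RPKM in vehicle 3, 4 and 7 (log2 difference 0.06 ± 0.06, limma adjusted p = 0.854).

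The desaturases split. Scd2 (chromosome 19, 44293676 to 44306864), the most abundant messenger of the 38, had 199.4, 167.4 and 158.0 RPKM in pemafibrate 3, 7 and 8, against 144.3, 133.4 and 202.7 RPKM in vehicle 3, 4 and 7. Scd1, which makes the same delta-9 double bond and is known as an LXR and SREBP target, had 9.95, 5.72 and 5.74 RPKM in pemafibrate 3, 7 and 8, against 4.32, 4.15 and 9.80 RPKM in vehicle 3, 4 and 7. Pemafibrate 3 and vehicle 7 were again the high libraries, and the log2 differences between groups were 0.14 ± 0.15 for Scd2 and 0.27 ± 0.33 for Scd1 (limma adjusted p of 0.841 and 0.866). The 2 paralogs lie on the same chromosome and are similar, so that the authors' counting could have split reads between them. The ratio of Scd2 to Scd1 RPKM was 20.0, 29.3 and 27.5 in pemafibrate 3, 7 and 8, against 33.4, 32.1 and 20.7 in vehicle 3, 4 and 7.

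Fads2, the delta-6 desaturase of polyunsaturated fatty acids, had 12.4, 10.1 and 8.49 RPKM in pemafibrate 3, 7 and 8, against 8.28, 10.7 and 16.3 RPKM in vehicle 3, 4 and 7. Its log2 difference of -0.14 ± 0.23 (limma adjusted p = 0.905) turned to 0.11 without vehicle 7. Fads1, the delta-5 desaturase, had 16.1, 15.2 and 16.4 RPKM in pemafibrate 3, 7 and 8, against 16.3, 17.0 and 17.4 RPKM in vehicle 3, 4 and 7 (-0.09 ± 0.05, limma adjusted p = 0.674). Fads1 stayed within 1.08-fold inside the pemafibrate group, while Fads2 spanned 1.46-fold there and 1.97-fold in vehicle.

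**Figure D2:**
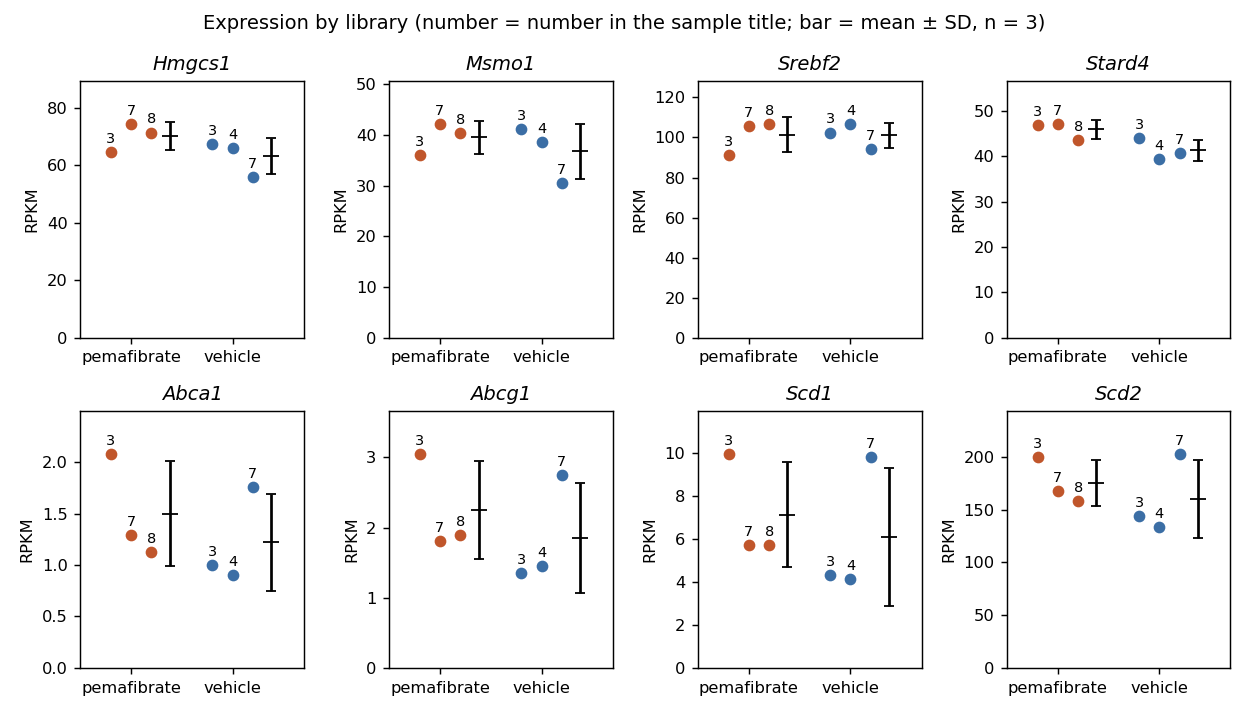
RPKM in each library for 8 genes, pemafibrate left of vehicle, with the title number at each point and the mean ± SD beside it (n = 3 per group). Pemafibrate 3 and vehicle 7 are the lowest libraries of their groups for Hmgcs1, Msmo1 and Srebf2 and the highest for Abca1, Abcg1, Scd1 and Scd2.

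The same 2 libraries stood apart across the sterol genes, in the opposite direction. Of the 18 enzymes of the mevalonate and sterol steps, pemafibrate 3 was the lowest of its group for 13, against 39% of all genes tested. Vehicle 7 was the lowest of its group for 15 of the 18, against 39.6% of all genes tested. Both held together for 12 of the 18 (66.7%), against 20.8% of all genes tested. These shares describe the libraries and carry no test, because genes of a pathway are not independent replicates and the libraries were singled out after their values were seen.

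Msmo1, the sterol C4 demethylase, showed the widest spread of the 18 enzymes within vehicle: it had 36.0, 42.2 and 40.3 RPKM in pemafibrate 3, 7 and 8, against 41.1, 38.6 and 30.5 RPKM in vehicle 3, 4 and 7. Sqle, which epoxidizes squalene, had 45.0, 51.9 and 49.9 RPKM in pemafibrate 3, 7 and 8, against 50.6, 48.6 and 41.6 RPKM in vehicle 3, 4 and 7. Relative to the mean of the other libraries of the group, Msmo1 was at 0.873 times in pemafibrate 3 and 0.766 times in vehicle 7, and Sqle at 0.883 times in pemafibrate 3 and 0.840 times in vehicle 7. Fdps and Tm7sf2 were among the enzymes that did not follow. Fdps, farnesyl diphosphate synthase, was at 1.03 times in pemafibrate 3 and 1.10 times in vehicle 7, and Tm7sf2, a sterol C14 reductase, at 1.13 times in pemafibrate 3 and 0.931 times in vehicle 7. Exons of Tm7sf2 share up to 532 bases with Vps51 on the same strand.

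In the other direction, 5 of the 38 genes were highest in both pemafibrate 3 and vehicle 7, against 16.2% of all genes tested: Abca1, Abcg1, Scd1, Scd2 and Fads2. Abca1 was at 1.72 times the mean of the other pemafibrate libraries in pemafibrate 3 and 1.86 times the mean of the other vehicle libraries in vehicle 7, and Abcg1 at 1.65 times in pemafibrate 3 and 1.96 times in vehicle 7. Scd1 was at 1.74 times in pemafibrate 3 and 2.32 times in vehicle 7, Scd2 at 1.23 times in pemafibrate 3 and 1.46 times in vehicle 7, and Fads2 at 1.33 times in pemafibrate 3 and 1.72 times in vehicle 7. The share of 5 in 38 (13.2%) is close to the background. The steps were wide for Scd1, whose spread within pemafibrate and within vehicle was reached by 4.47% and 2.02% of all genes tested, and less so for Scd2, at 18% for pemafibrate and 7.17% for vehicle. The ratio of Hmgcs1 to Abca1 RPKM was 31.1, 57.6 and 63.4 in pemafibrate 3, 7 and 8, against 67.8, 73.1 and 31.8 in vehicle 3, 4 and 7. The low ratio in pemafibrate 3 and vehicle 7 follows from setting a gene that is low in both against a gene that is high in both.

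**Figure D3:**
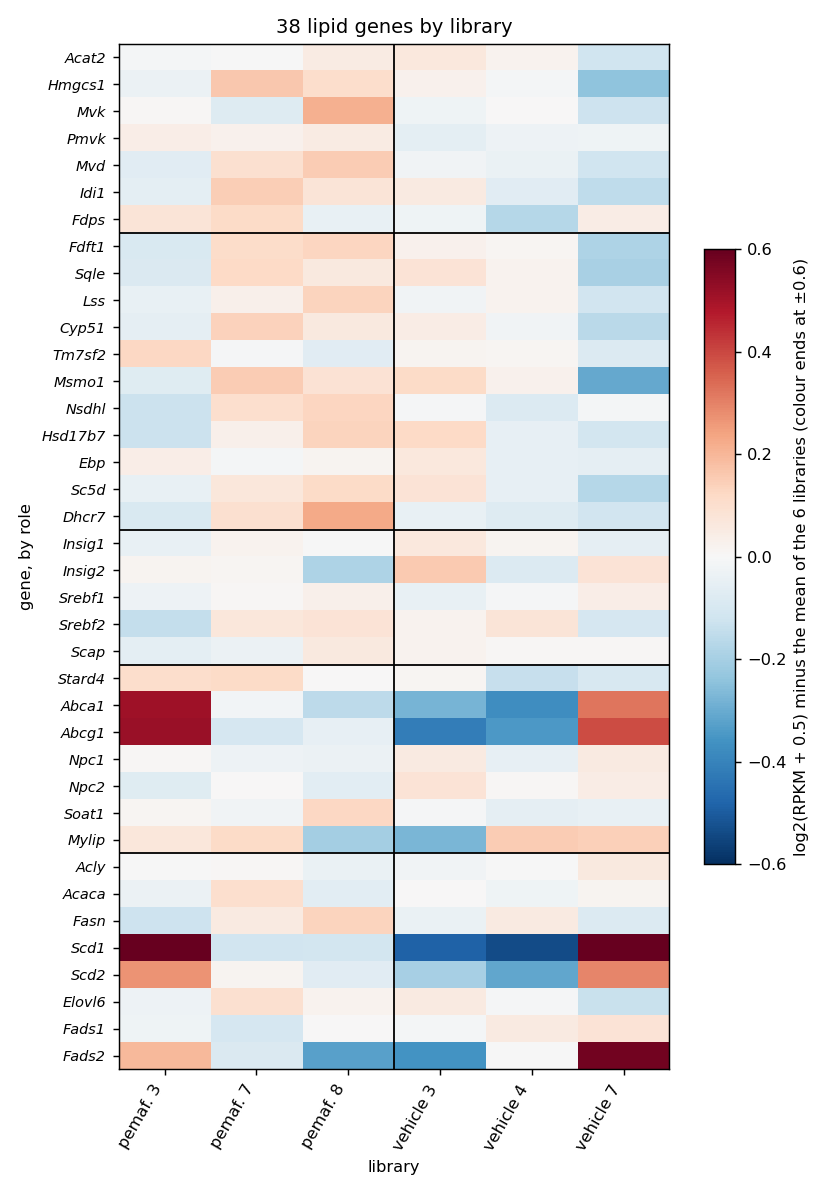
Log2(RPKM + 0.5) of the 38 genes in each library minus the mean of the 6 libraries, with pemafibrate libraries left of vehicle libraries and genes grouped by role; the colour scale ends at 0.6 in either direction. Most rows of the mevalonate and sterol steps are blue in vehicle 7 and pale or blue in pemafibrate 3, and Abca1, Abcg1, Scd1 and Scd2 are red in both of these libraries and mostly blue elsewhere.

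Other values moved with these 2 libraries. The macrophage, monocyte and dendritic cell markers summed to 7.80, 10.2 and 13.6 RPKM in pemafibrate 3, 7 and 8, against 11.9, 10.8 and 8.63 RPKM in vehicle 3, 4 and 7, lowest in pemafibrate 3 and vehicle 7. That order is Lyz2's, at 4.60, 5.19 and 8.95 RPKM in pemafibrate 3, 7 and 8, against 7.68, 6.59 and 4.32 RPKM in vehicle 3, 4 and 7. Cd68 was lowest in pemafibrate 3 but highest in vehicle 7, and Csf1r, Adgre1 and Itgax were under 0.3 RPKM in each library. The T cell markers summed to 1200, 1252 and 1242 RPKM in pemafibrate 3, 7 and 8, against 1256, 1249 and 1218 RPKM in vehicle 3, 4 and 7. The 3 Th17 markers summed to 1580, 1466 and 1285 RPKM in pemafibrate 3, 7 and 8. In vehicle 3, 4 and 7 they summed to 1868, 1729 and 1929 RPKM. Il17a, Il17f and Ccr6 were each the highest of their group in pemafibrate 3 and in vehicle 7. Pemafibrate 3 was the largest of the 6 libraries, at 18322467 reads, and vehicle 7 held 17297576 reads, between vehicle 4 and vehicle 3. The part of these markers and of library size in the pattern was not tested. Over all 11360 genes tested, the deviations from the group mean of pemafibrate 3 and vehicle 7 correlated at 0.185, those of pemafibrate 8 and vehicle 4 at 0.199, and those of pemafibrate 3 and vehicle 4 at -0.22, given as a description because genes are not independent replicates and the deviations within a group sum to 0. Without both libraries, a setting chosen after the data were seen that leaves 2 samples per group, limma called 0 of the 38 genes and 12 of all genes, with 6 of the 38 at an unadjusted p under 0.05 (9.13% of all genes tested). The log2 difference was then 0.24 for Abca1, 0.31 for Abcg1, 0.40 for Scd1 and 0.23 for Scd2, with limma adjusted p of 0.708, 0.550, 0.197 and 0.287. Over all settings tried the adjusted p ran from 0.583 to 0.999 for Abca1, from 0.502 to 0.999 for Abcg1, from 0.197 to 0.999 for Scd1 and from 0.287 to 0.999 for Scd2.

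Promoters of 3 enzymes and of Abca1 are shown because the enzymes were low and Abca1 high in the same libraries. RefSeq's promoter table for GRCm38.p6 held 37 starts of 29 of the 38 genes, and the 250 bases before each start were searched on both strands. The Abca1 start used there lies inside the gene's span given above (53030789 to 53159988). Part of the Abca1 window therefore lies within that span. The motifs were TCACNCCAC, the form of the sterol regulatory element bound by SREBP, CCAAT, the box bound by NF-Y, a known partner of SREBP, CACGTG, an E-box that SREBP can also bind, and GGTNA followed by GGTCA with 5 unspecified bases between them, a relaxed form of the direct repeat called DR4 that LXR binds with RXR. Capitals mark every match on either strand, so that CCAAT on the opposite strand reads ATTGG. The sterol enzymes Hmgcs1 (chr13:119690101-119690350, plus strand), Idi1 (chr13:8885356-8885605, plus strand) and Msmo1 (chr8:64733579-64733828, minus strand) are set against Abca1 (chr4:53159896-53160145, minus strand), each written 5′ to 3′ on the strand of the gene:
Hmgcs1: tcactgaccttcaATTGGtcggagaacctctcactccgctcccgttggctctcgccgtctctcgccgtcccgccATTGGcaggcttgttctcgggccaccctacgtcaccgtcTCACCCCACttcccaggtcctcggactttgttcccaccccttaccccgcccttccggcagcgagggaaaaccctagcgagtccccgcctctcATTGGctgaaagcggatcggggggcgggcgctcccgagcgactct
Idi1: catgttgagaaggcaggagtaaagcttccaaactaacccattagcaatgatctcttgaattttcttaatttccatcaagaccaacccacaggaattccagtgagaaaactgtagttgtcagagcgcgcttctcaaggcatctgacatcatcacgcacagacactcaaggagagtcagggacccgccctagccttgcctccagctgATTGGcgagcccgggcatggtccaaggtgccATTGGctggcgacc
Msmo1: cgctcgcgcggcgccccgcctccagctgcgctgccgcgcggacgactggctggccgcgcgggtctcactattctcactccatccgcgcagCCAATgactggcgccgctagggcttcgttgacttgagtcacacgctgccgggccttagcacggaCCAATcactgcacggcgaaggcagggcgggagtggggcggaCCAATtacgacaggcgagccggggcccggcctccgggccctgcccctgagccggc
Abca1: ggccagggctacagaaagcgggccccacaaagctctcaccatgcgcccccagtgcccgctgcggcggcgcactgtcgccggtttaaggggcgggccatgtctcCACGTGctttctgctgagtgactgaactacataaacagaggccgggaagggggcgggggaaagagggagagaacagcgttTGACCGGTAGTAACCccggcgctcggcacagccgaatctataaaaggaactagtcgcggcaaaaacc

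The strict sterol element was found in 1 of the 37 member promoters (2.7%), that of Hmgcs1 at -137 to -129 from the start, against 1.03% of the promoters of tested genes and 1.05% of all 32851 promoters in the table. The CCAAT box was found in 14 of 18 promoters (77.8%) of the mevalonate and sterol enzymes and in 9 of 19 promoters (47.4%) of the other members, against 35.6% of the promoters of tested genes and 33.8% of all. The E-box was found in 6 of 37 (16.2%), against 8.62% of the promoters of tested genes and 6.02% of all. No match says only that these letters are not in this window.

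The relaxed DR4, whose letters were set with the Abca1 promoter in view, was found in 3 of 37 member promoters (8.11%), against 0.12% of the promoters of tested genes and 0.177% of all. The match in Abca1 was therefore fixed in advance, and the share that counts it carries no test. All 3 matches are on the strand opposite to the gene, at -67 to -53 in Abca1, -225 to -211 in Fasn and -182 to -168 in Srebf1. The match in Abca1 lies before the start used here but inside the gene's span given above. They are given here to compare them letter by letter, on the strand of the match, with the fixed letters in capitals:
Abca1: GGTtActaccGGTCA
Fasn: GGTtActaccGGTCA
Srebf1: GGTtActggcGGTCA
The matches in Abca1 and Fasn are identical over these letters. Their levels did not go together: relative to the mean of the other libraries of the group, Abca1 was at 1.72 times in pemafibrate 3 and 1.86 times in vehicle 7, whereas Fasn was at 0.858 times in pemafibrate 3 and 0.939 times in vehicle 7 and Srebf1 at 0.966 times in pemafibrate 3 and 1.05 times in vehicle 7. A match is a description of the sequence and not a site shown to be bound. The part of LXR in the levels of these genes was not tested.

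By level, the 38 genes spanned from 0.717 RPKM for Mylip to 168 RPKM for Scd2, averaged over the 6 libraries. Scd2, Acly, Npc2 and Srebf2 were the most abundant, at 168, 123, 116 and 101 RPKM, above 93.2% to 96.5% of the genes tested. Acly and Npc2 overlapped in part, at 120 to 128 RPKM and 110 to 122 RPKM over the 6 libraries, and Scd2 and Srebf2 lay above and below them without overlap. The 18 enzymes lay between 7.65 RPKM for Tm7sf2 and 81.3 RPKM for Idi1. Scd1, Abcg1, Abca1 and Mylip were the 4 lowest, at 6.61, 2.05, 1.36 and 0.717 RPKM. Of the delta-9 desaturase RNA counted here, most was Scd2.

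**Figure D4:**
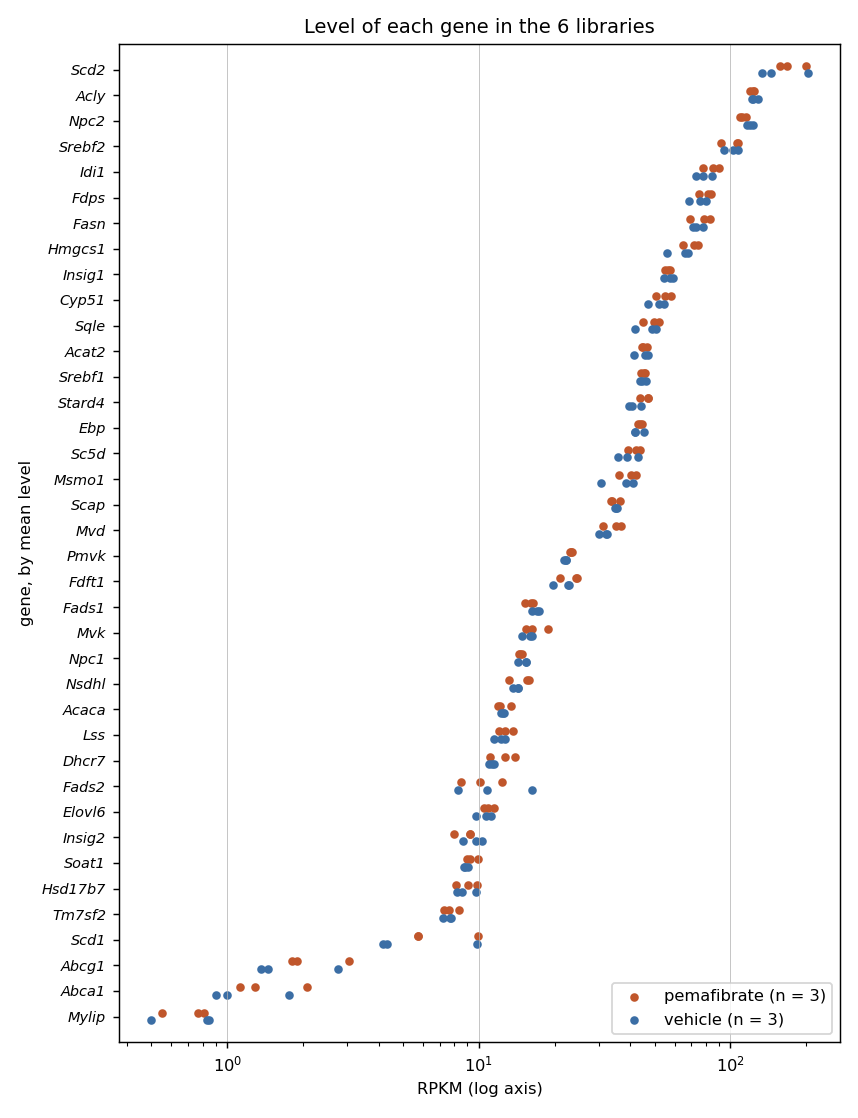
RPKM on a log axis of each of the 38 genes in the 3 pemafibrate and 3 vehicle libraries, ordered by the mean of the 6 libraries. Scd2 is at the top with 168 RPKM on average and Mylip at the bottom with 0.717 RPKM, and the 2 groups lie over each other for nearly every gene.

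Genes of the same pathways outside the 38 were followed in 6 lists with 60 genes, of which 54 passed the filter. Limma called 0 of 54 (background 0.352%), with 3 at an unadjusted p under 0.05 (background 9.67%), and voom called 0 of 55 (background 1.23%), with 2 at an unadjusted p under 0.05 (background 9.6%). The groups did not overlap for 5, all with pemafibrate above (background 7.67%, and 7.31% for below). Gramd1b, which moves accessible cholesterol from the plasma membrane to the endoplasmic reticulum, had 27.6, 30.1 and 29.9 RPKM in pemafibrate 3, 7 and 8, against 25.5, 24.6 and 25.9 RPKM in vehicle 3, 4 and 7. Its log2 difference was 0.20 ± 0.05 (limma adjusted p = 0.179). It was the 1 gene of the 60 with an adjusted p under 0.05 in the authors' deposited table, at 0.0462. Of all genes there 1.19% had one, and of the 11360 genes tested here 2.46%. An unadjusted p under 0.05 in the authors' deposited table was found for 4 of the 60. The background was 5.89% over all genes and 11.1% over the 11360 genes tested here.

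Pdss1, which makes the side chain of ubiquinone from isoprenoid units, averaged 13.7 ± 0.248 RPKM in pemafibrate and 12.4 ± 0.402 RPKM in vehicle, and its partner subunit Pdss2 4.93 ± 0.241 RPKM in pemafibrate and 4.30 ± 0.480 RPKM in vehicle (SD, n = 3 each). Neither passed (limma adjusted p of 0.396 and 0.593), and the groups did not overlap in either. Lcat, known for esterifying cholesterol on lipoproteins, averaged 1.98 ± 0.367 RPKM in pemafibrate and 1.43 ± 0.231 RPKM in vehicle (limma adjusted p = 0.479). Lcat rested on few reads, 30 to 57 per library. Of 11 isoprenoid and prenylation genes 9 had a log2 difference above 0 (median 0.03), of 12 genes of sterol movement and ester hydrolysis 8 (median 0.01), of 9 tested further SREBP targets and substrate suppliers 8 (median 0.03), of 9 tested elongation and desaturation genes 7 (median 0.04), of 7 SREBP processing genes 4 (median 0.03), and of 6 tested LXR and oxysterol genes 3 (median -0.0011). In the last list Pltp, the phospholipid transfer protein gene and a known LXR target, averaged 1.14 ± 0.323 RPKM in pemafibrate and 1.60 ± 0.338 RPKM in vehicle with overlap (limma adjusted p = 0.603). Pltp also rested on few reads, 24 to 57 per library. Of the 9 further SREBP targets and substrate suppliers, 1 was lowest of its group in both pemafibrate 3 and vehicle 7, and 2 were highest in both. Of the 6 LXR and oxysterol genes, 2 were lowest in both and 0 highest. The backgrounds were 20.8% for lowest and 16.2% for highest.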

How the data were processed

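The authors deposited one table of RPKM for 24421 genes in 6 samples, and beside it the log2 fold change and the p-value of their own test, raw and adjusted, per the file headers; their rank by p-value, an other kind of column, was deposited too and not used. Per the submitters' processing notes the reads passed through bcl2fastq, Trimmomatic 0.35 and HISAT2 2.1.0, genes were handled with featureCounts 1.4.6 and with edgeR, and GRCm38 and mm10 are named as builds. Libraries were stranded and started from 1.0 µg of total RNA, per the labels' protocols. Which annotation was counted and whether by strand is not given in the sources used here, and exons of 12 of the 38 genes share bases with another gene in GENCODE M21, so such reads cannot be told apart. The labels gave each sample's group.

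RPKM is not a count, so log2(RPKM + 0.5) was tested with limma 3.58.1 in R 4.3.3 (trended prior variance, no further scaling), pemafibrate against vehicle, over the 11360 genes that averaged 0.5 RPKM or more. The test was two-sided and p was adjusted by Benjamini-Hochberg (threshold 0.05). A log2 difference of a low gene is understated by the added 0.5. Whole reads were recovered from the ratios of each gene's RPKM between samples (100% of values above 0 whole within a relative tolerance of 1e-06), and library sizes from whole gene lengths; for a gene 2000 bases long, 1 read came to 0.0335 RPKM or less. For voom the minimum was a mean of 10 reads. Precision from read numbers covers counting error only.

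The members and lists were chosen with earlier results of these data known. Values per library are given for up to 4 genes per role with the smallest p, the most abundant gene of each role, Srebf1 and Srebf2, and, of the other lists, up to 3 genes each could be named. Abca1, Fads2, Msmo1, Sqle and further members were added after their values were seen. Alternatives were other pseudocounts and filters, 2 scalings, array weights, robust moderation, the title number as a block, voom, a threshold of 0.1 and leaving out samples. The fit was tested on simulated data. Positions and promoters are RefSeq's for GRCm38.p6. Python 3.11.15 with matplotlib 3.10.9 made the figures. The Th17 sum covers 3 markers, and 1 further marker is not reported here.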

Additional observations from a re-analysis of the deposited data

How the results depend on the processing

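The count of 0 among the 38 genes (36 tested with a filter at 2 RPKM) held under all 18 alternatives, as did the count of 0 among the other pathway genes. By limma or voom 1 to 6 of the 38 had an unadjusted p under 0.05, against 5.75% to 14% of all genes tested. There were 6 without vehicle 7 and pemafibrate 3 (background 9.13%) and 5 without pemafibrate 3 (background 8.8%). With array weights there were 4 (background 14%), and with the title number as a block 1 (background 5.75%). The median log2 difference of the 38, 0.065, ran from 0.030 without vehicle 7 to 0.083 without vehicle 3. The limma count over all genes, 40, was 7 with no filter, 100 at a threshold of 0.1, 140 with array weights, 12 without vehicle 7 and pemafibrate 3 (chosen after the data were seen), and 0 to 25 when 1 sample was left out, the 0 being without pemafibrate 7 (771 at an unadjusted p under 0.05); voom called 146. With the title number as a replicate block limma called 0 of all genes (653 at an unadjusted p under 0.05). In that fit a sample whose number is not shared added nothing to the group difference. The block values therefore rest on the samples numbered 3 and 7 alone, fewer than in the main fit. Only 2 numbers are shared, and the labels do not say that a shared number means a shared source, so the numbers are not taken to pair the samples. The correlation of deviations from the group mean was 0.030 for the samples numbered 3 and -0.0083 for those numbered 7. Between samples of different numbers it ran from -0.22 to 0.199, so these values cannot decide whether the samples are paired. Of 727 log2 differences of 43 genes (the 38 and 5 other pathway genes) under the alternatives, 691 kept their direction. Leaving out 1 sample turned the sign of Acat2 (-0.030 to 0.061), Sqle (-0.021 to 0.12), Tm7sf2 (-0.019 to 0.077), Msmo1 (-0.015 to 0.20), Hsd17b7 (-0.036 to 0.094), Insig1 (-0.048 to 0.010), Srebf1 (-0.012 to 0.030), Srebf2 (-0.048 to 0.074), Scap (-0.056 to 0.0015), Mylip (-0.15 to 0.085), Acaca (-0.046 to 0.037), Fasn (-0.011 to 0.12) and Fads2 (-0.36 to 0.11). With quantile normalization Srebf1 was -0.0035 and Srebf2 -0.0031, and with median ratio scaling Srebf2 was -0.0020. With array weights Acat2 was -0.0074, Hsd17b7 -0.0066, Ebp -0.0084 and Mylip 0.12. With the block Srebf1 was -0.0086, Nsdhl -0.0047, Hsd17b7 -0.054 and Mylip 0.16. Without vehicle 7 and pemafibrate 3 Acat2 was -0.017, Tm7sf2 -0.051, Ebp -0.0058 and Mylip 0.016. Apart from what fewer genes or samples change by construction, the cause was not tested. Mylip had the fewest reads of the 38, 27 to 43 per library.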
